A study of Rattus norvegicus with 20 samples.

Results

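In the soleus of spinal-injured rats, 168 of 13398 tested genes differed between complete cord transection and no injury by 2 to 4-fold while their mean after contusion stayed near the uninjured mean. They comprised 44 genes with higher levels after transection, called rising here, and 124 with lower levels, called falling. The genes were chosen by their values. Abundance was expressed as CPM, the share of a library's scaled total counts, and a gene needed a mean of at least 1 CPM over all 20 libraries. Its transection mean had to be 2 to 4 times the uninjured mean, or 0.25 to 0.5 of it, with no overlap between the 4 transection and 4 uninjured libraries. Its contusion mean had to lie no more than 13% below or 15% above the uninjured mean, and its swimming range had to overlap the uninjured range. Values of transection, contusion and swimming against uninjured muscle are therefore a description. The shallow water walking libraries entered the choice only through the scaling, the low-count filter and the mean over all libraries.

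The soleus is a calf muscle made mostly of slow fibres and is active during standing and walking. A complete transection cuts all descending input to the motor neurons below it, whereas a contusion bruises the cord and can spare a rim of fibres through which some descending control persists. Muscle below a cord injury keeps its nerve supply but loses much of its activity and load, and such unloading is known to bring atrophy and a shift of slow fibres toward faster, less oxidative types.

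All rats were of the Sprague-Dawley strain, and the 5 groups held 4 libraries each. The transection group had a complete transection at T2 and was taken at 8.5 weeks. The contusion group had a 25 g-cm contusion at T2 and was taken at 11.5 weeks. The swimming and walking groups had the same contusion, began exercise at 2.5 weeks, exercised on 5 days a week for 10 weeks and were taken at 13.5 weeks. The uninjured group, with no cord injury and no exercise, is labelled 11.5 weeks. All animals lived in small cages from day 4, which restricted movement in every group. Because every transection library was taken at 8.5 weeks and no other library was, the effects of transection and of time cannot be told apart. The exercised libraries alone were taken at 13.5 weeks. Exercise and time therefore cannot be told apart where swimming or walking is set against contusion or uninjured muscle. In whole-muscle RNA, fewer cells of a type and less RNA per cell cannot be told apart either. The tissue was not checked against marker genes, because the identifiers were not paired with gene names.

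Transection libraries held 31877886 to 36438046 counts. The range was 22394223 to 35986860 counts for contusion libraries, 21165832 to 30649862 for swimming libraries, 21445449 to 36604027 for walking libraries and 26195066 to 39729930 for uninjured libraries. A pair of libraries stood apart from their groups. Transection library 3 had 13837 genes with a count, the fewest of all libraries. Swimming library 2 departed from the other swimming libraries, in the chosen genes and in its counts as a whole, as described below. Some results that rest on them are given with and without them.

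Most genes with a transection difference of this size were left out by the contusion limit. Of the 11565 genes with a mean of at least 1 CPM, 318 were 2 to 4-fold higher after transection and 551 were lower by the same factors, without overlap. The contusion limit kept 48 of the 318 and 191 of the 551. The swimming limit then removed 4 rising and 67 falling genes. The choice thus retained a larger part of the falling genes than of the rising ones, and 274 higher and 427 lower genes with the same transection difference remained outside it. Those outside genes serve below as the nearest comparison, and they differ from the chosen ones by construction in contusion and swimming.

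**Figure D1:**
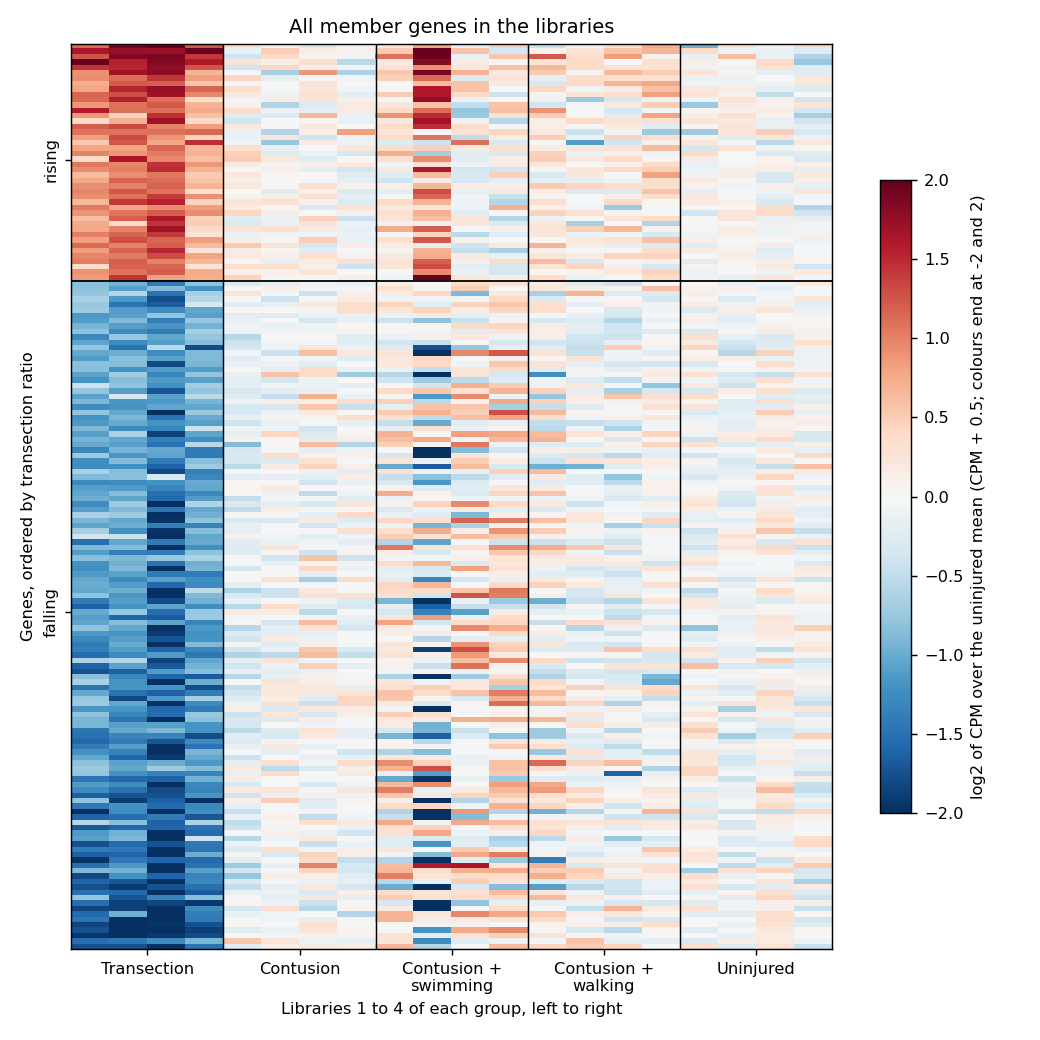
Every chosen gene (rows, ordered by transection ratio, 44 rising above 124 falling) in every library (columns, libraries 1 to 4 within each group). Colour gives the log2 ratio of CPM to the uninjured mean, with 0.5 CPM added to both. The transection block is red above and blue below by the rule, swimming library 2 resembles it in most rising rows and in part of the falling rows, and the contusion and walking blocks are mostly pale.

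The rising genes mostly differed by little more than the limit and were mostly low in abundance. Their transection to uninjured ratio had a median of 2.203 and quartiles of 2.09 and 2.41, and 22 of 44 lay within 10% of the lower limit. Only 6 exceeded 3-fold. Their mean abundance over all libraries had a median of 3.68 CPM, against 15.2 CPM for all genes with at least 1 CPM, and 25 of the 44 lay under 5 CPM. Rising genes were thus mainly scarce transcripts, although 2 of them passed 100 CPM. Low abundance was partly shared by the 274 higher genes outside the choice, which had a median of 7.27 CPM, with 107 under 5 CPM.

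The falling genes were changed by larger factors and were more abundant. Their ratio had a median of 0.405 with quartiles of 0.344 and 0.447, and 26 of 124 were more than 3-fold lower. Mean abundance had a median of 13.0 CPM, against 14.3 CPM for the 427 lower genes outside the choice. Of the chosen falling genes 73 reached 10 CPM and 14 reached 100 CPM. Compared with the rising genes they lay farther from the limit of the rule, with 23 of 124 within 10% of it.

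The limits cut through a continuous range of values. The rising gene nearest the lower limit of 2 had a ratio of 2.01 and the nearest excluded gene 1.99; at the upper limit of 4 the values were 3.95 and 4.13. For falling genes the ratios were 0.4999 inside and 0.506 outside at the limit of 0.5, and 0.253 and 0.238 at the limit of 0.25. The contusion ratio reached 1.148 inside and 1.1501 outside among rising genes, and 0.873 and 0.8698 among falling genes. The lowest mean abundance inside was 1.05 CPM for rising and 1.07 CPM for falling genes, and the highest outside 0.834 and 0.974 CPM.

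The separation from uninjured muscle was narrow in some genes and wide in others. The lowest transection library exceeded the highest uninjured library by a median of 1.42-fold among rising genes, with a range of 1.03 to 2.59. Among falling genes the lowest uninjured library exceeded the highest transection library by a median of 1.59-fold, with a range of 1.00 to 3.12. Over all tested genes transection values did not overlap uninjured values in 28.8%, with 13.5% higher and 15.4% lower. With edgeR's quasi-likelihood test on all 13398 genes and an adjusted p below 0.05, 40 of 44 rising genes and 120 of 124 falling genes were called for transection against uninjured, where 28.1% of all genes were called, 13.4% higher and 14.7% lower. The rule used this contrast, so nothing is read from those counts.

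Transection library 3 carried the most extreme value more often than the others. It was the highest transection library in 27 of 44 rising genes and the lowest in 80 of 124 falling genes. Transection library 4 was the mildest, being the lowest of the group in 31 rising genes and the highest in 47 falling genes. Genes outside the choice shared this. There library 3 was the most extreme in 129 of 274 higher and 210 of 427 lower genes, and library 4 the mildest in 147 and 167. Without library 3, the median ratio was 2.07 for rising and 0.442 for falling genes, and 16 rising and 25 falling genes left the 2 to 4-fold window. When library 3 and swimming library 2 were both removed and the choice repeated, 32 rising and 110 falling genes were found, of which 22 and 88 were among those described here. The choice depended on single transection libraries in the other direction too, since 76 genes qualified as rising without transection library 4.

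**Figure D2:**
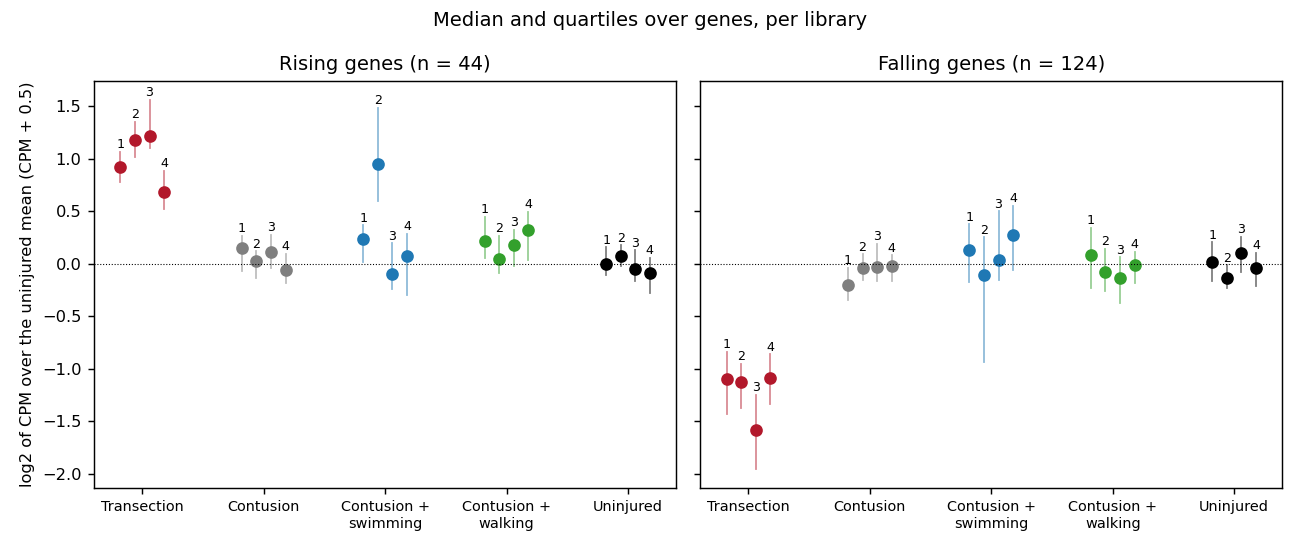
Median (points) and quartiles (lines) over the 44 rising genes (left) and 124 falling genes (right) of the log2 ratio of CPM to the uninjured mean, with 0.5 CPM added, for each numbered library. Transection medians lie between 0.68 and 1.22 for rising and between -1.58 and -1.09 for falling genes, and swimming library 2 lies at 0.95 on the left.

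The contusion libraries were held near uninjured muscle by the rule, so their ratios within that limit are a description. The contusion to uninjured ratio had a median of 1.06 in rising genes, with 32 of 44 above 1, and 0.951 in falling genes, with 82 of 124 below 1. Over all tested genes the median was 1.01. Genes outside the choice had contusion medians of 1.44 (274 higher) and 0.784 (427 lower). The limits thus cut through values lying mostly toward transection, and nothing is read from the side on which the chosen genes lay. For contusion against uninjured 0 of 44 rising and 0 of 124 falling genes were called by edgeR, as were 0% of all genes, and 0 of the chosen genes had an unadjusted p under 0.05, against 9.80% of all genes, 5.04% higher and 4.76% lower. The rule used this contrast, so nothing is read from those counts. DESeq2 also called 0 of them, though it called 99 genes in all. Contusion values overlapped the uninjured range in all 44 rising and 124 falling genes, where 7.52% of all genes did not overlap, 3.58% being higher and 3.94% lower. Contusion library 1 lay lowest of its group among falling genes, at a median log2 ratio of -0.20, and the other contusion libraries lay between -0.04 and -0.02.

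Transection and contusion libraries separated in most of the chosen genes, as the rule makes likely. In 39 of 44 rising genes every transection library lay above every contusion library, against 9.24% of all genes, and in 119 of 124 falling genes every one lay below, against 12.5%. With edgeR 39 rising and 115 falling genes were called for transection against contusion, where 15.3% of all genes were called, 6.07% higher and 9.25% lower. Without transection library 3 the calls numbered 30 rising and 101 falling genes, while calls over all genes also fell, from 2052 to 1498. Both groups had been used in the choice, so these counts only describe it.

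The walking libraries offer the only group whose values the rule did not limit. In them the falling genes stayed near uninjured levels, and the rising genes lay slightly above. The ratio of walking to uninjured had a median of 0.972 in falling genes, with 54 above and 70 below 1. In rising genes it had a median of 1.18, with quartiles of 1.104 and 1.31, and 37 of 44 lay above 1. Over all genes tested the median was 1.01. The uninjured libraries took part in the choice, so walking against uninjured is not wholly independent of it.

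No chosen gene passed the test of walking against uninjured, and few genes of any kind did. With edgeR's quasi-likelihood test 0 of 44 rising and 0 of 124 falling genes were called. Over all genes 0.463% were, 0.164% higher and 0.299% lower, so nothing is read from these counts of 0. DESeq2 called 0 chosen genes as well. An unadjusted p under 0.05 was found for 3 rising genes, all higher after walking, and 4 falling genes, of which 2 were higher and 2 lower. Over all genes 13.6% had such a p, 6.44% higher and 7.19% lower, and the rule had kept genes close to uninjured muscle in the contusion libraries. The smallest adjusted p was 0.221 among rising and 0.242 among falling genes. The median log2 difference was 0.24 for rising genes and -0.04 for falling genes. The standard error (SE) of a single gene had a median of 0.31 among rising and 0.25 among falling genes. Walking values overlapped the uninjured range in 42 of 44 rising and 120 of 124 falling genes. The 2 exceptions among rising genes lay above, and of the 4 among falling genes 1 lay above and 3 below, where 9.50% of all genes did not overlap, 4.41% being higher and 5.09% lower.

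Expressed as a share of each gene's transection difference on the log2 scale, walking stood at a median of 18.8% among rising genes, with quartiles of 11.2% and 30.8%. Among falling genes it stood at 3.53%, with quartiles of -9.33% and 13.7%. No chosen gene reached 50% of its transection difference. The genes outside the choice stood at a median of 43.0% for the 274 higher and 25.0% for the 427 lower genes. The contusion limit selects against such values through the shared uninjured libraries and through any response common to contusion and walking, so this contrast is a description.

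Walking against contusion alone was called for 0 chosen genes by edgeR and by DESeq2, as for 0% of all genes with edgeR. An unadjusted p under 0.05 was found for 0 rising and 2 falling genes, both higher after walking, against 3.18% of all genes, 1.16% higher and 2.02% lower. Rising genes had a median log2 difference of 0.17, with 37 of 44 above 0, and falling genes one of 0.02. For all genes tested the median was 0.01, with 6837 of 13398 above 0. Among the 274 other rising genes 166 lay above 0. The rule had kept the contusion means of the chosen genes near uninjured muscle, so this contrast is a description.

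Walking libraries were also apart from transection libraries in most of the chosen genes. Every walking library lay below every transection library in 32 of 44 rising genes, against 10.2% of all genes, and above in 112 of 124 falling genes, against 11.9%. With edgeR 31 rising genes were lower and 108 falling genes higher in walking than in transection muscle (adjusted p below 0.05), where 8.96% and 11.0% of all genes were called in those directions. The transection values had been chosen for their distance from uninjured muscle, which raises these counts. Without transection library 3 the calls numbered 18 rising and 101 falling genes, while calls over all genes also fell, from 2678 to 2188.

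**Figure D3:**
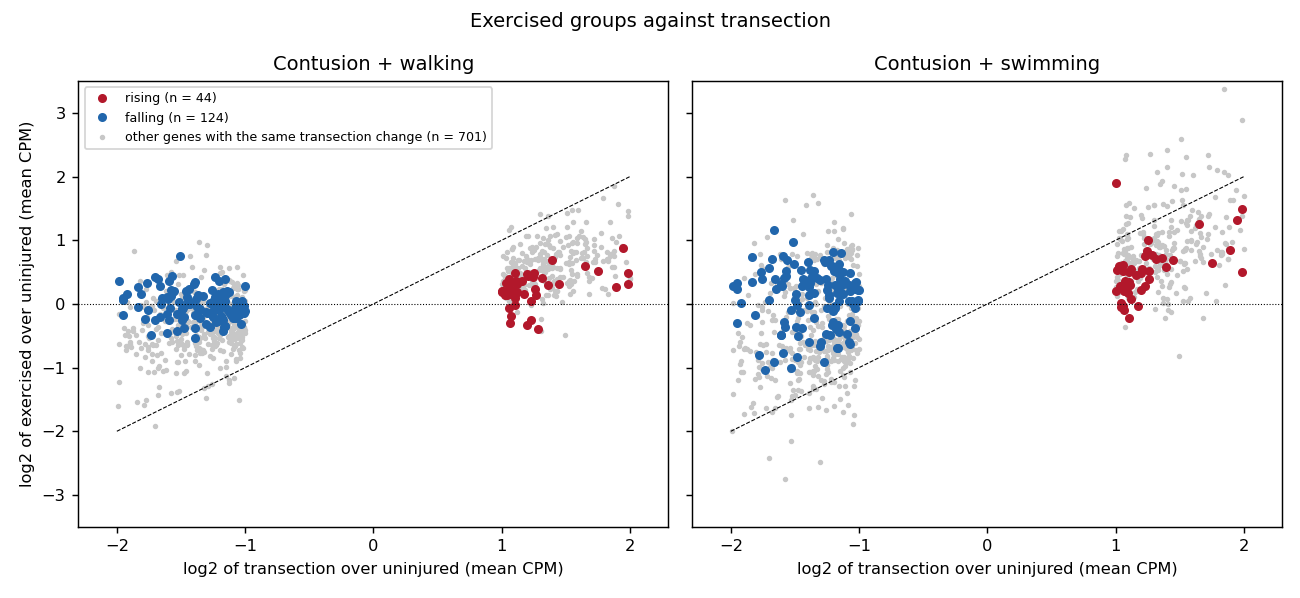
Mean CPM over the uninjured mean on log2 axes, for transection (horizontal) against walking (left) or swimming (right), for 44 rising genes, 124 falling genes and the other genes with the same transection difference. The dashed line marks equal differences; 37 of 44 rising genes lie above 0 with walking and 39 of 44 with swimming, or 30 of 44 without swimming library 2.

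The swimming libraries overlapped the uninjured range by rule, yet their means did not always sit at uninjured levels. Over all tested genes 23.0% did not overlap, 11.5% being higher and 11.6% lower after swimming. The rising genes had a median swimming to uninjured ratio of 1.42, and 39 of 44 lay above 1. The falling genes had a median of 1.16, on the side away from transection, with 79 of 124 above 1. For swimming against uninjured edgeR called 3 rising genes, all higher after swimming, and 7 falling genes, of which 5 were higher and 2 lower, where 20.0% of all genes were called, 9.99% higher and 10.1% lower. None of these 10 genes was called for contusion alone or for walking against uninjured. Of all genes only 0% and 0.463% were called in those comparisons, so nothing is read from this. Without swimming library 2 the calls were 0 rising and 9 falling genes, 8 of the 9 being higher after swimming. Over all genes 2245 were then called, against 2685 with that library. With 1 library left out the calls ran from 0 to 8 rising and from 1 to 13 falling genes, and from 1459 to 2572 over all genes. The direction of the falling calls turned as well, since 3 of 7 were higher without swimming library 1, 6 of 13 without swimming library 3, 1 of 7 without swimming library 4 and 0 of 3 without uninjured library 2. The calls after swimming, and the balance of their directions, thus rested on single libraries.

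Among contused libraries, swimming library 2 had by far the most rising genes at transection levels. It reached or passed the lowest transection library in 29 of 44 rising genes, while swimming libraries 1, 3 and 4 did so in 3, 3 and 0 genes. Its median log2 ratio over rising genes was 0.95, within the transection range of 0.68 to 1.22, and the other swimming libraries stood at -0.10 to 0.24. It was the highest of the swimming libraries in 37 of 44 rising genes. With library 2 left out, the median swimming to uninjured ratio of rising genes was 1.11, and 30 of 44 lay above 1.

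In falling genes the same library was divided. It lay below the whole uninjured range in 56 of 124 genes and above it in 24, so that its median log2 ratio was -0.11. In 32 falling genes it was at or below the highest transection library, against 3, 5 and 1 genes in swimming libraries 1, 3 and 4. It was the lowest swimming library in 84 of 124 genes and the highest in 17. For 16 of the 124 falling genes the overlap with uninjured muscle came only through library 2, the other swimming libraries all being above the uninjured range. Of all genes 11.5% lay wholly above that range even with library 2 included, so nothing is read from this count. Without library 2 the median ratio was 1.16 and 85 of 124 lay above 1.

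Swimming library 2 also stood toward transection in genes outside the choice. Among the 274 other rising genes it reached transection levels in 163, against 84, 69 and 78 in libraries 1, 3 and 4. Among the 427 other falling genes it did so in 198, against 87, 84 and 67. Its library total was 21165832 counts, the lowest of all, with 15478 genes detected, within the range of the contused groups. What sets this library apart was not tested, and every swimming mean includes it unless stated otherwise.

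**Figure D4:**
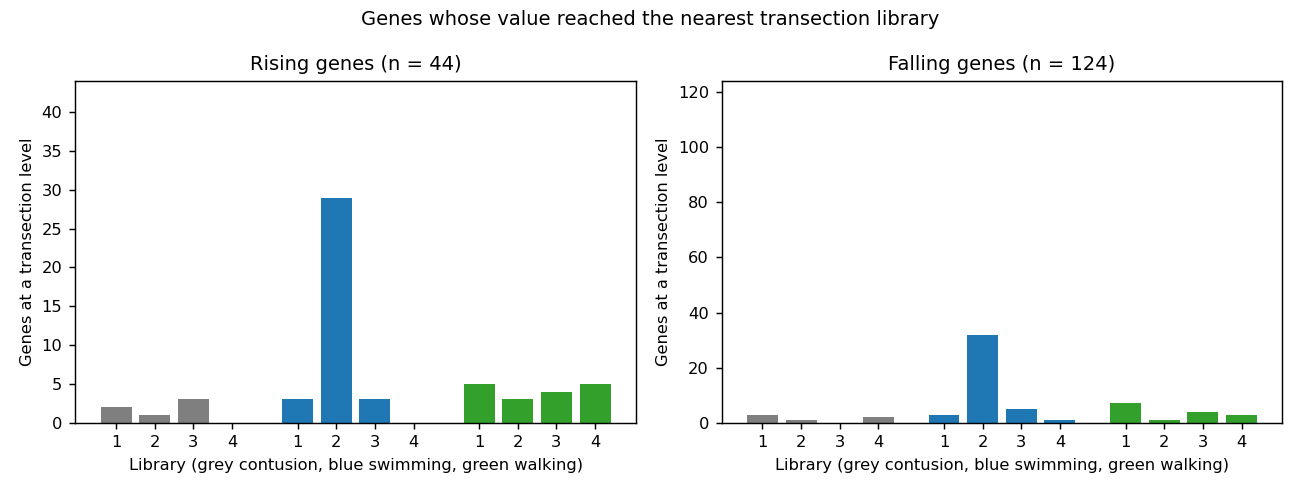
Number of rising genes (left, of 44) and falling genes (right, of 124) in which a contusion, swimming or walking library lay at or beyond the nearest transection library. Swimming library 2 counts 29 and 32 genes, and no other library counts more than 5 rising or 7 falling genes.

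The spread within groups was widest in swimming muscle with library 2 included, and without it remained so, narrowly, for rising genes only. The coefficient of variation over the 4 libraries had a median over rising genes of 45.7% in swimming muscle, against 23.1% in transection, 20.5% in contusion, 21.7% in walking and 18.6% in uninjured muscle. Over falling genes the median was 28.1% in swimming, 23.9% in transection, 15.8% in contusion, 18.5% in walking and 18.6% in uninjured muscle. Over swimming libraries 1, 3 and 4 alone it was 24.3% for rising and 21.1% for falling genes.

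Summed levels differed in the same directions, with single abundant transcripts making up much of each sum. The rising genes together held 2012 to 3022 CPM in transection libraries, 1170 to 1402 CPM in contusion libraries, 1257 to 1545 CPM in walking libraries and 1049 to 1240 CPM in uninjured libraries. Swimming library 2 held 2362 CPM of them and the other swimming libraries 1031 to 1326 CPM. The falling genes together held 4670 to 5562 CPM in transection libraries, 12726 to 15265 CPM in contusion libraries, 12378 to 13913 CPM in walking libraries and 14086 to 16418 CPM in uninjured libraries. Swimming library 2 held 4510 CPM of them and the other swimming libraries 12195 to 14480 CPM. Without the most abundant falling gene, swimming library 2 held 4126 CPM, between 2080 to 2604 CPM in transection and 5402 to 6447 CPM in uninjured libraries.

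The identifiers are not paired with gene names in the sources used here, so 4 genes are given by Ensembl identifier, being the most abundant gene and the one with the ratio farthest from 1 in each direction. The most abundant rising gene, ENSRNOG00000046763, stood at 1312, 1370.0, 1650 and 1152 CPM in transection libraries 1 to 4. In contusion libraries it stood at 769, 718, 844 and 711 CPM, in swimming libraries at 755, 1118, 760 and 605 CPM, and in walking libraries at 805, 744, 908 and 915 CPM. Uninjured libraries held 663, 727, 596 and 692 CPM. The transection libraries lay above all 16 others, swimming library 2 came next, and every walking library lay above the highest uninjured one. Means were 1371 ± 207 CPM in transection, 761 ± 61.1 in contusion, 809 ± 218 in swimming, 843 ± 83.0 in walking and 670 ± 55.4 CPM in uninjured muscle (SD, n = 4 each). On the log2 scale walking lay 0.33 above uninjured with an SE of 0.16, which missed the threshold (edgeR adjusted p = 0.364, and 0.155 to 0.629 over the alternatives).

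The rising gene with the highest ratio, ENSRNOG00000033057, is scarce. It stood at 3.56, 6.58, 7.50 and 3.89 CPM in transection libraries, which correspond to 110 to 181 counts. Contusion libraries held 1.78, 1.21, 1.05 and 1.47 CPM, swimming libraries 1.70, 2.74, 1.19 and 2.04 CPM, and walking libraries 0.861, 1.48, 1.79 and 2.62 CPM. Uninjured libraries held 0.460, 1.71, 1.45 and 1.83 CPM. The transection libraries again lay above all others, and the other 4 groups overlapped. The mean was 5.38 ± 1.96 CPM in transection and 1.36 ± 0.621 CPM in uninjured muscle (SD, n = 4 each), a ratio of 3.95. Walking differed from uninjured by a log2 value of 0.31 (SE 0.38, edgeR adjusted p = 0.777, and 0.628 to 0.999 over the alternatives), and by -0.0023 when walking library 4 was left out.

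The most abundant falling gene, ENSRNOG00000001285, held 3196, 2508, 2590 and 2398 CPM in transection libraries. It held 9448, 8429, 6743 and 9521 CPM in contusion libraries, and 8245, 8486, 7197 and 7326 CPM in walking libraries. Swimming libraries 1, 3 and 4 held 7255, 5328 and 8028 CPM, but library 2 held 384 CPM, below every transection library. Uninjured libraries held 7959, 8684, 10066 and 9971 CPM. Means were 2673 ± 357 CPM in transection, 8535 ± 1294 in contusion, 7814 ± 647 in walking and 9170 ± 1024 CPM in uninjured muscle (SD, n = 4 each). Swimming averaged 5249 ± 3436 CPM with library 2 and 6870 ± 1390 CPM over the 3 other libraries. The walking to uninjured log2 difference was -0.23 (SE 0.48, edgeR adjusted p = 0.883, and 0.424 to 0.970 over the alternatives).

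The falling gene with the lowest ratio, ENSRNOG00000056017, held 2.42, 2.44, 1.59 and 3.08 CPM in transection libraries. Contusion libraries held 7.98, 10.0, 10.8 and 10.4 CPM, swimming libraries 15.3, 6.09, 9.43 and 14.9 CPM, and walking libraries 12.8, 13.6, 12.8 and 9.34 CPM. Uninjured libraries held 11.8, 7.67, 11.4 and 6.75 CPM. No transection library overlapped any other group, and swimming library 2 was the lowest of the remaining 16. The mean was 2.38 ± 0.612 CPM in transection and 9.41 ± 2.57 CPM in uninjured muscle (SD, n = 4 each), a ratio of 0.253. Walking lay 0.37 above uninjured on the log2 scale with an SE of 0.25 (edgeR adjusted p = 0.553, and 0.366 to 0.877 over the alternatives).

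**Figure D5:**
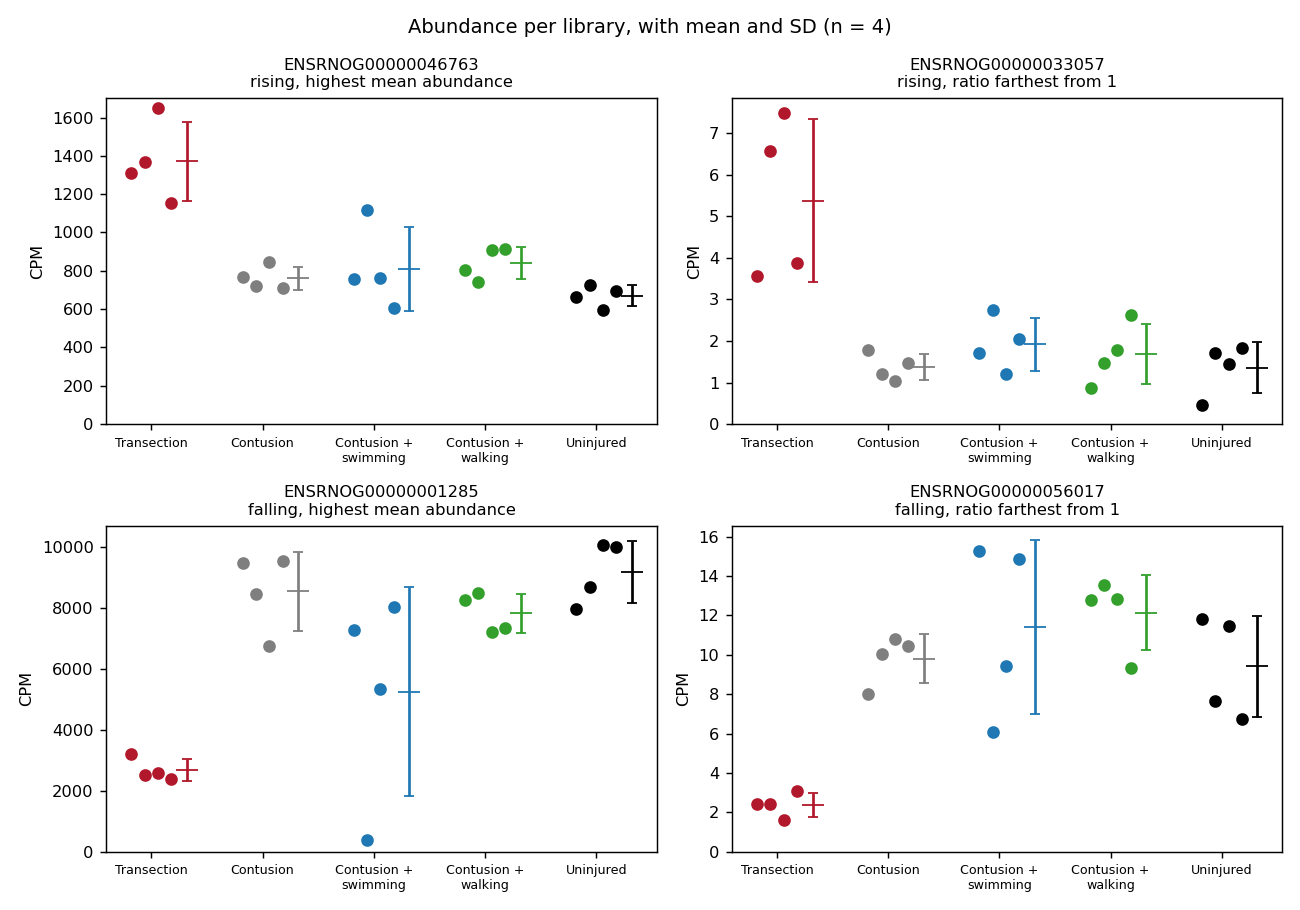
CPM of the 4 named genes in the 20 libraries (points, libraries 1 to 4 from left to right), with mean (horizontal line) and SD (vertical line) of the 4 libraries, on axes that start at 0. Transection libraries lie outside every other group in 3 genes; in ENSRNOG00000001285 swimming library 2, at 384 CPM, lies below them.

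Which genes were chosen changed little under another scaling that allows for composition, and much without one. With median-of-ratios scaling 46 rising and 124 falling genes met the rule, of which 40 and 120 were among those described here. Counts of transection libraries were more concentrated in abundant transcripts, with 53.7% to 60.2% of counts in the 50 most abundant genes against 43.9% to 46.6% in uninjured libraries, and their scaling factors were 0.711 to 0.953. With library totals as the only scaling, 15 rising and 220 falling genes met the rule, of which 7 and 65 were among those described here. The median log2 difference of all genes between transection and uninjured muscle was then -0.32, against 0.02 with the scaling used.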

How the data were processed

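Whole-number counts per gene for 24613 Ensembl identifiers in 20 libraries were used as the authors deposited them. Poly-A RNA and a stranded kit were used, per the labels' protocols. The submitters' processing notes list FastQC 0.10.1, HTSeq and rn6. The aligner, annotation and strand setting are not given in the sources used here, so overlapping or near-identical genes may share counts. The RefSeq gene table of 47357 genes paired 0 identifiers with a symbol, so the 24 gene lists drawn up could not be applied and the named genes follow the rule set for that case (highest mean CPM and ratio farthest from 1, in each direction).

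In edgeR 4.0.16 (R 4.3.3), genes passed filterByExpr (minimum count 10), CPM were computed with library sizes scaled by TMM (trimmed mean of M values). One quasi-likelihood fit with robust dispersions held all 5 groups (15 residual degrees of freedom), with Benjamini-Hochberg adjustment over 13398 genes and a threshold of 0.05. Each SE is the log2 difference divided by the root of F. Within-group library pairs differed by a chi-square of 26.5 to 517 per degree of freedom over 30 pairs, so none was taken for a copy. Pairs with swimming library 2 gave 390, 458 and 517, and no other pair exceeded 133.4. Alternatives included DESeq2 1.42.0. The fit and the rule were tested on simulated data. Members and lists were chosen with earlier results of these data known. The labels number replicates and do not say whether each came from its own animal, so p-values measure the spread between these libraries, which may be technical. Figures used matplotlib 3.10.9.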

Additional observations from a re-analysis of the deposited data

Results flagged for a closer look

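A library was set aside for a closer look when its gap to the nearest of the 4 libraries of its group exceeded Dixon's critical share of the group's range. Of 55 groups of values examined 5 met this, where chance gives about 1 in 20, or 2.75. Over falling genes transection library 3 had a median log2 ratio to uninjured of -1.58, the next lowest being -1.13. Over the same genes contusion library 1 stood at -0.20, the next lowest being -0.04. Walking library 3 held 12378 CPM in falling genes together, the next lowest 13692. Walking library 4 had a total of 36604027 counts, the next highest 23665744. Uninjured library 4 had a scaling factor of 0.982, the next lowest 1.08.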

How the results depend on the processing

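The number of chosen genes was 15 rising and 220 falling with library totals only, and 19 rising at a mean of at least 5 CPM. Leaving out a library gave 33 to 76 rising and 94 to 156 falling genes, with 23 to 44 and 82 to 113 of them among those described. Rising genes called for walking against transection numbered 16 with library totals only, and 18 to 30 with a library left out. Over all genes that comparison called 3587 and 1936 to 2642 in those settings, against 2678 in the fit used. For swimming against uninjured, rising and falling genes called were 6 and 4 with library totals only, 0 and 4 without the low-count filter, 0 and 17 without transection library 3 and swimming library 2, 0 and 4 with the compared groups alone, and 6 and 16 with DESeq2. With a library left out they were 0 to 8 and 1 to 13. Over all genes the same comparison called 2685 in the fit used and 1960 with library totals only. It called 2310 without the filter, 2908 without the 2 libraries and 1819 with the compared groups alone. All genes called for contusion against uninjured numbered 12 with library totals only, 1 with the replicate block, 46 without the 2 libraries, 28 with the compared groups alone, 99 with DESeq2 and 0 to 15 with a library left out. In walking against uninjured muscle they numbered 41 without the filter, 318 without the 2 libraries, 142 with the compared groups alone, 375 with DESeq2 and 5 to 75 with a library left out, while 0 chosen genes were called in each of these. For swimming against uninjured a library left out gave 1459 to 2572 genes. The log2 difference of ENSRNOG00000033057 between walking and uninjured was -0.0023 without walking library 4 and up to 0.51 with another library left out. The causes were not tested.

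Same-numbered libraries did not pair: their deviations from group means correlated at -0.286 to 0.428 over 40 pairs, 8 of them above 0.1, and in 10 pairs the correlation was the best with the own number. With the replicate block 2 rising and 7 falling genes were called for swimming against uninjured, 2 of the 7 being higher, against 5 of 7 without the block. Over all genes 2489 were called with the block and 2685 without it. Of 714 values under alternatives 665 were classed as unchanged. A count had to stay within 1.5-fold of the one used, and a median over chosen genes within the spread between libraries. Medians over all genes had to stay within 0.1. A named gene only had to keep its sign and its side of the threshold, whatever its size. Walking differences of up to 0.85 in rising and 0.76 in falling genes on the log2 scale were not called, so differences of that size could be missed with 4 libraries a group.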
